A study of Arabidopsis thaliana with 24 samples.

Results

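Leaves of wild-type Arabidopsis thaliana, accession Col-0, were profiled after infiltration with flg22 or with water, and the transcript response to flg22 in these leaves is described here. The comparison used every array titled Col-0 under either treatment, which were 6 of the 24 arrays of the series, 3 with flg22 and 3 with water. Plants were 6 weeks old, grown on soil in short days, and leaves were collected 4 h after 1 µM flg22 or water had been pressed into them, so both groups carried the same infiltration. The other 18 arrays came from mpk6 and erf104 mutants and from plants carrying 35S::ERF104, in which the 35S promoter drives ERF104, under the same treatments. They served only to compare the wild-type response with theirs. Total RNA was labelled with biotin as cRNA and hybridised to Affymetrix ATH1 arrays, on which a probe set is a group of short probes read as 1 transcript.

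The peptide flg22 is the conserved stretch of bacterial flagellin that plants recognise at the cell surface. The receptor kinase FLS2 binds it together with BAK1, the cytoplasmic kinase BIK1 is released, and a calcium influx, an oxidative burst by RBOHD and MAP kinase cascades follow. Transcription is then reprogrammed towards defence proteins, cell wall strengthening and antimicrobial metabolites, and growth slows.

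Each Col-0 array had been scaled to the same trimmed mean in the deposited table, and median signals lay between 134.8 and 301.8 units. Arrays of 1 group correlated with each other across probe sets at 0.614 to 0.734 under water and 0.730 to 0.836 under flg22. Only 2572 probe sets were called present or marginal on all 3 water arrays and 5659 on all 3 flg22 arrays, so dim transcripts were measured poorly. The ratio of the 3′ to the 5′ probe sets of the GAPDH control was 2.69, 1.51 and 2.95 on the water arrays. On the flg22 arrays it was 2.18, 1.89 and 1.43, and the groups overlapped, as they did for the ubiquitin control. For the actin control it was 9.8, 9.7 and 8.0 under water and 7.8, 9.9 and 35.6 under flg22. By actin, flg22 replicate 3 therefore stood apart from the other Col-0 arrays. Without it 391 probe sets passed the limma test below, 286 as rises and 105 as falls. With all 6 arrays 422 passed, 359 as rises and 63 as falls. Whether RNA quality had a part in that difference was not tested. Labels did not say whether replicates were separate plants or days, so p-values measure only the spread between these arrays, which may be technical. The leaf label was checked against marker genes: 5 of 5 measured mesophyll markers were called present on all 6 arrays, and 7 of 9 root and flower markers were called absent on all 6.

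Of 22746 probe sets tested with limma and Benjamini-Hochberg adjustment at 0.05, 422 passed, or 1.86%. Of these 359 rose and 63 fell, which is 1.58% and 0.277% of those tested, and 331 rises and 54 falls exceeded the 3-fold threshold of the series text (1.46% and 0.237%). These calls depend on limma's trend of the spread over signal: without it 0 passed on the same 6 arrays, and 0 passed by the methods' ANOVA after adjustment, so all 87 named genes that passed lost their calls under each. That ANOVA unadjusted and over 3-fold gave 1205 probe sets. The median log2 change of a rise was 2.28 and that of a fall −1.83, and the smallest changes that passed were 1.38 up and −1.40 down. The median of all probe sets itself lay at −0.39, so falls are read against that shift, and after centring each array on its median 1 fall passed beside 273 rises. Of the rises, 358 had all 3 flg22 arrays above all 3 water arrays, as did 6.84% of all probe sets. Of the falls, 62 had the reverse, as did 10.9%. Passing the test on the same arrays favours such separation, so it is no separate support. Replicates of the raised probe sets were closer to each other under flg22 than under water, with median SDs of 0.385 and 0.692 on the log2 scale. Over all probe sets these were 0.843 and 1.00. The raised probe sets were selected by a test that favours low spread, and were brighter under flg22, so neither difference is a separate result. The calls leaned on single arrays: 176 rises and 7 falls passed whichever array was left out. In bulk leaf RNA, fewer cells of a type and less RNA per cell cannot be told apart.

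**Figure D1:**
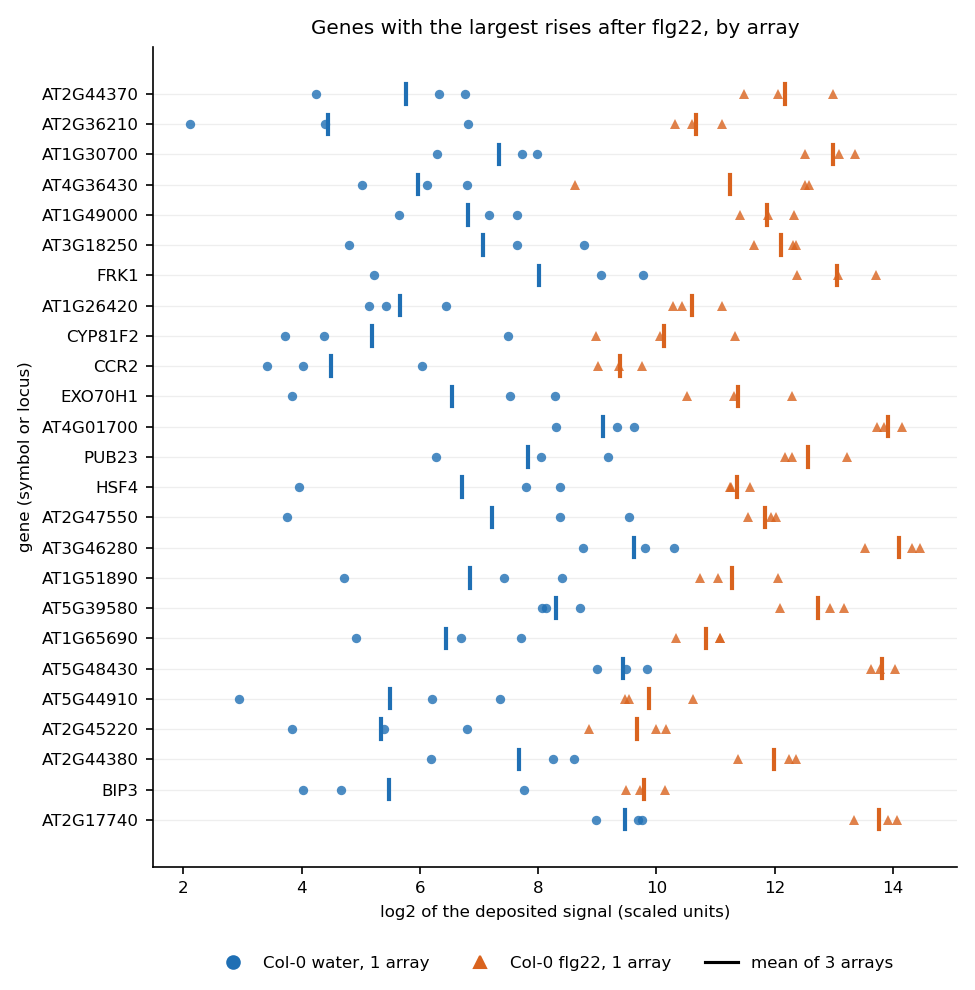
The log2 signal of each Col-0 array is plotted for the 25 genes with the largest rises, with circles for water, triangles for flg22 and a bar at each mean of 3 arrays. The 25 were chosen among genes whose groups do not overlap, so their separation follows from that choice. The water arrays are spread more widely than the flg22 arrays for 23 of the 25, which was not separated from their lower signal under water.

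The largest rise was in a gene that RefSeq lists by locus alone. AT2G44370 had signals of 18.9, 79.8 and 108 under water and 2858, 4245 and 8071 under flg22. Water left it dim on all 3 arrays, where it was called absent, and every flg22 array was far above them. For a gene called absent throughout 1 group only a bound is given, the mean of the brighter group over the mean of the other, both of log2 signals, taking in the other group, per array, the higher of the gene's own signal and the lowest signal among probe sets called present in that group (146 to 347 units for the water arrays). On that basis AT2G44370 was at least 18.8-fold higher after flg22 (limma adjusted p 3.75e-07). A gene with mixed calls in a group keeps its log2 change, whose size is uncertain where an array lay below that lowest signal. AT1G30700, a member of the berberine bridge enzyme-like list, had the lowest adjusted p together with AT4G01700. Its signals were 252, 213 and 78.6 under water and 5858, 10509 and 8659 under flg22, a log2 change of 5.65 ± 0.45 (SE; adjusted p 4.65e-08). AT4G01700 went from 647, 789 and 316 to 13661, 18132 and 14746, a change of 4.82 ± 0.39 (adjusted p 4.65e-08). In both genes every flg22 array lay far above every water array.

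FRK1 (AT2G19190), the flg22-induced receptor kinase used as an early marker of pattern-triggered immunity, had signals of 37.2, 534 and 879 under water. Under flg22 they were 5334, 8635 and 13365, a change of 5.04 ± 0.69 (adjusted p 7.15e-05). The water arrays differed widely from each other, and all 3 lay below the lowest flg22 array. Water replicate 1 lay below the lowest signal among probe sets called present there (347 units), so the size of the rise is uncertain. AT2G36210, which RefSeq also calls SAUR45, of the small auxin upregulated RNA family, was called absent under water and was at least 6.64-fold higher under flg22 (adjusted p 0.000405). AT2G45220, also called PME17, a pectin methylesterase, was at least 3.31-fold higher (adjusted p 0.00824), a call lost without flg22 replicate 2 or 3, at adjusted p up to 0.169. AT5G48430 was called present on every array and rose from 719, 916 and 511 to 12672, 16818 and 14060 (4.37 ± 0.37, adjusted p 7.23e-08). The other genes among the 25 largest rises that had no symbol included AT3G46280 (4.48), AT1G51890 (4.43), AT1G65690 (4.38), AT2G44380 (4.31) and AT2G17740 (4.30). All 5 kept their calls whichever array was left out.

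Receptors and receptor-like kinases formed one of the groups with most rises. In the list of pattern receptors and receptor-complex kinases 8 of 29 measured members rose and 0 fell, against 1.58% rising over all probe sets, and the median change was 1.06. That share, and 0.277% for falls, is the one to set beside the counts of every list and family below. FLS2 (AT5G46330), the flg22 receptor, had signals of 269, 192 and 312 under water, called absent, and 690, 529 and 624 under flg22. The groups did not overlap, but the difference did not pass (adjusted p 0.340). Its co-receptor BAK1 went from 817, 856 and 1140 to 2169, 2355 and 2605, also without overlap, and missed the threshold (1.35 ± 0.37, adjusted p 0.0615). BIK1, the kinase that FLS2 and BAK1 release, passed: its signals were 1026, 1253 and 1001 under water and 2363, 3445 and 4371 under flg22 (1.60 ± 0.37, adjusted p 0.0199). That call was lost without flg22 replicate 2, flg22 replicate 3 or water replicate 1, at adjusted p up to 0.117, and after centring.

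Receptors for other microbial patterns were among those that rose. CERK1 (AT3G21630), the LysM receptor kinase needed for chitin perception, went from 466, 702 and 460 to 2394, 3400 and 3567 (2.53 ± 0.39, adjusted p 0.000324). SD1-29 (AT1G61380), known as LORE and needed for sensing bacterial hydroxy fatty acids, had 437, 509 and 660 under water and 2035, 1931 and 3049 under flg22 (2.12 ± 0.40, adjusted p 0.00296). Neither gene's groups overlapped, and both calls held whichever array was left out. The malectin-like receptor kinase gene IOS1 (AT1G51800) rose by 3.03 ± 0.39 (adjusted p 3.30e-05), and SOBIR1, the adaptor kinase of receptor-like proteins, by 1.99 ± 0.39 (adjusted p 0.00402). RIPK went from 594, 318 and 811 to 1403, 2050 and 3387 (adjusted p 0.0135), a call lost without flg22 replicate 2 or 3 or water replicate 2, at up to 0.0809. BIR1 rose by 1.51, and lost its call without flg22 replicate 1 or 2 or water replicate 1, at up to 0.146, and after quantile normalization or centring. Members that did not pass included EFR (1.82, adjusted p 0.479) and PEPR1 (1.06, adjusted p 0.508). Of 21 measured cysteine-rich receptor-like kinases 5 rose and 0 fell, with a median of 1.03. CRK2 rose by 2.60, CRK29 by 2.44, CRK19 by 2.34, CRK3 by 1.85 and CRK13 by 1.54. The call of CRK29 was lost without flg22 replicate 2 or 3 or water replicate 1, at adjusted p up to 0.170, and that of CRK13 without any flg22 array or water replicate 1, at up to 0.101, and after quantile normalization or centring. The count ran from 3, without flg22 replicate 2 or 3 or water replicate 1, to 8, without water replicate 3. CRK18, which neighbours CRK19 on the chromosome, is not a member of the list.

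Ubiquitin ligases that act in immunity contributed 2 of the steepest rises. PUB23 (AT2G35930) and PUB22 (AT3G52450) encode related U-box ligases known to dampen pattern-triggered responses. PUB23 had 578, 265 and 77.6 under water and 5004, 9584 and 4646 under flg22 (4.73 ± 0.53, adjusted p 3.76e-06). PUB22 had 271, 769 and 211 under water and 5897, 7438 and 6626 under flg22 (4.23 ± 0.43, adjusted p 1.18e-06). For both, the dimmest flg22 array was several times brighter than the brightest water array. CMPG1, another U-box ligase, rose by 2.70 ± 0.50. Altogether 5 of 16 measured ligases rose and 0 fell, with a median of 0.60. The RING ligases ATL6 (2.58, adjusted p 0.0459) and CNI1 (at least 3.73-fold, adjusted p 0.0268) passed narrowly, ATL6 with overlapping groups. ATL6 lost its call without flg22 replicate 2 or 3 or water replicate 1 or 3, at adjusted p up to 0.270, and CNI1 without any flg22 array or water replicate 2, at up to 0.163, and neither passed after quantile normalization. PUB24, the third of the closely related U-box genes, had overlapping groups and did not pass (1.79, adjusted p 0.186).

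A peptide hormone and its receptor rose together. PSK4 (AT3G49780), a precursor of phytosulfokine, went from 451, 640 and 767 to 3529, 5080 and 4284 (2.81 ± 0.38, adjusted p 5.16e-05). PSKR1 (AT2G02220), the phytosulfokine receptor, went from 48.3, 203 and 276 to 845, 1436 and 2059 (3.29 ± 0.62, adjusted p 0.00301). Neither gene's groups overlapped, and both calls held whichever array was left out. These were 2 of 14 measured members of the peptide list, in which 6 were called absent in both groups. The danger peptide precursors PROPEP3 (2.61, adjusted p 0.266) and PROPEP2 (2.55, adjusted p 0.407) were called absent under water and had non-overlapping groups, but did not pass.

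Of 43 measured WRKY transcription factors 9 rose and 0 fell, and the median change was 0.71. WRKY17 (AT2G24570), known as a repressor of basal resistance, had signals of 251, 262 and 113 under water and 2352, 2889 and 2760 under flg22 (3.77 ± 0.46, adjusted p 1.38e-05). WRKY22 (AT4G01250), placed downstream of the flagellin MAP kinase cascade, had 157, 372 and 548 under water and 3929, 4788 and 2561 under flg22 (3.52 ± 0.45, adjusted p 3.24e-05). These 2 genes kept their calls whichever array was left out. Lower rises with less secure calls were those of WRKY6 (1.97), WRKY47 (1.95), WRKY11 (1.89), WRKY48 (1.89), WRKY7 (1.80) and WRKY15 (1.75), with adjusted p up to 0.171 when 1 array was left out. All 6 lost their calls without flg22 replicate 2. WRKY7, WRKY11 and WRKY47 also needed flg22 replicate 3 and water replicate 1, WRKY6 and WRKY48 flg22 replicate 1 and water replicate 3, and WRKY6, WRKY7 and WRKY47 water replicate 2. WRKY27, called absent under water, was at least 3.33-fold higher (adjusted p 0.0124, and lost without flg22 replicate 2 or 3, at up to 0.135). The count of rising WRKY genes ran from 2 (without flg22 replicate 2) to 8 with 1 array left out and was 4 after quantile normalization. WRKY33, a regulator of camalexin synthesis, went from 434, 259 and 340 to 1078, 663 and 1448 without overlap and did not pass (1.59 ± 0.49, adjusted p 0.116). WRKY70 (−2.94, adjusted p 0.233) stood at the other end of the family, with overlapping groups.

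Among 31 other stress-related transcription factors 5 rose and 0 fell. MYB15 (AT3G23250), known to direct defence lignin synthesis, had 305, 165 and 132 under water, called absent, and 1925, 1105 and 2322 under flg22. It was at least 6.65-fold higher (adjusted p 0.000416). HSF4 (AT4G36990), a class B heat shock factor, had 15.6, 332 and 223 under water and 2461, 3065 and 2425 under flg22 (4.65 ± 0.74, adjusted p 0.000416). Both held whichever array was left out. For HSF4, water replicates 1 and 3 lay below the lowest signals among probe sets called present there (347 and 293 units). The size of its rise is therefore uncertain. The zinc finger genes ZAT11, at least 3.35-fold higher, STZ (1.76) and SZF1 (2.55) passed with all 6 arrays. ZAT11 lost its call without any flg22 array, at adjusted p up to 0.150, STZ without flg22 replicate 2 or water replicate 2, at up to 0.0987, and SZF1 without flg22 replicate 2 or 3 or water replicate 1, at up to 0.214. ZAT11 and SZF1 did not pass after quantile normalization, nor STZ after centring.

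Genes of early signalling did not pass in this fit. Of 31 genes of calcium signalling and the oxidative burst 0 passed, and of 16 genes of the MAP kinase module 0 passed, with medians of 0.63 and 0.89. All flg22 arrays lay above all water arrays for 9 of the 31 and 7 of the 16, as they did for 6.84% of all probe sets. Without water replicate 3, 3 and 1 of them rose, and the median of the MAP kinase list was 0.45. RBOHD, the oxidase of the burst, had 678, 340 and 529 under water and 847, 1078 and 1034 under flg22 (0.98 ± 0.45, adjusted p 0.381), and its groups did not overlap. MPK3 had 628, 809 and 809 under water and 2136, 801 and 1861 under flg22, and MPK6 had 1163, 1526 and 724 under water and 1964, 2133 and 1653 under flg22. The groups overlapped for MPK3 (0.98, adjusted p 0.347) and not for MPK6 (0.81, adjusted p 0.417). At an unadjusted p under 0.05 limma counted 2705 probe sets in all.

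Hormone genes gave few calls. ACS2, an ACC synthase of ethylene production, was 1 of 15 measured ethylene synthesis genes to rise. It had 59.6, 147 and 70.3 under water, called absent, and 717, 648 and 629 under flg22, at least 2.70-fold higher (adjusted p 0.0281, and 0.215 without flg22 replicate 2). It was also lost without flg22 replicate 1 or 3 and after quantile normalization. ACS6, another ACC synthase, did not pass (1.56 ± 0.86, adjusted p 0.502). Of 19 ethylene response factors 0 passed and 10 were called absent in both groups. ERF104, the factor that the mutant and transgenic lines target, had 61.2, 221 and 284 under water, called absent, and 261, 80.1 and 167 under flg22, and its groups overlapped (adjusted p 0.992).

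Of 26 jasmonate genes 2 rose. LOX3, a lipoxygenase of jasmonate synthesis, went from 1185, 1802 and 145 to 6861, 5229 and 4509 (3.01 ± 0.58, adjusted p 0.00358), and the repressor gene JAZ1 rose by 1.64 (adjusted p 0.0331, and lost without flg22 replicate 1 or 2 or water replicate 3, at up to 0.137). Neither passed after quantile normalization. Of 23 salicylic acid genes 1 rose. CBP60G (AT5G26920), a calmodulin-binding factor that drives salicylic acid synthesis, went from 77.9, 228 and 627 to 1274, 2039 and 2709 (3.10 ± 0.58, adjusted p 0.00263), and its groups did not overlap. EDS16, the isochorismate synthase of that pathway, had 7.76, 229 and 589 under water and 302, 491 and 512 under flg22, with overlap (adjusted p 0.473). The late outputs PR1 and PDF1.2, of the salicylic acid and of the ethylene and jasmonate pathways, were called absent on all 3 water arrays and did not pass (adjusted p 0.960 and 0.934).

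Defence metabolism rose at several steps. Of 28 measured genes for tryptophan, camalexin and indole glucosinolates 4 rose and 0 fell, with a median of 0.92. CYP81F2 (AT5G57220), which hydroxylates indole glucosinolates for callose signalling, had 13.1, 20.9 and 179 under water, called absent, and 1073, 505 and 2573 under flg22. It was at least 4.55-fold higher (adjusted p 0.00344, and 0.126 without flg22 replicate 3). CYP83B1, which commits indole oximes to glucosinolates, went from 1736, 2117 and 2204 to 8231, 10150 and 7730 (2.10 ± 0.36, adjusted p 0.000986). TSA1, a tryptophan synthase alpha subunit, rose by 3.30 ± 0.62 (adjusted p 0.00296), and not after quantile normalization. AT2G04400 rose by 1.54, and did not pass without flg22 replicate 2 or 3 or water replicate 1 or 2, at adjusted p up to 0.182, or under either rescaling. The camalexin gene PAD3 had a change of 0.26 (adjusted p 0.968).

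Genes of phenylpropanoid enzymes, which make monolignols for lignin, rose at some early and some late steps. Of 21 measured members 9 rose and 0 fell, with a median of 1.29. PAL1 (AT2G37040), the entry enzyme phenylalanine ammonia-lyase, had signals of 1466, 2569 and 1548 under water and 16588, 17506 and 12962 under flg22 (3.11 ± 0.38, adjusted p 1.38e-05). PAL2 went from 1648, 2544 and 2001 to 8442, 10560 and 6331 (2.02 ± 0.37, adjusted p 0.00226). 4CL1, the coumarate ligase, went from 1684, 3904 and 2192 to 14591, 15390 and 8589 (2.35 ± 0.40, adjusted p 0.00105). The groups were apart for all 3, and the 3 calls held whichever array was left out. The cinnamate hydroxylase gene C4H, whose product acts directly after PAL, rose by 2.15. Further down the pathway LysoPL2, the caffeoyl shikimate esterase, rose by 2.38, the methyltransferase gene CCoAOMT1 by 2.22, and the alcohol dehydrogenase genes ELI3-2 and CAD5 by 1.80 and 1.57. CCR2, a cinnamoyl-CoA reductase, was called absent under water and was at least 2.70-fold higher (adjusted p 0.0135). Without flg22 replicate 2 the calls of CCoAOMT1 (0.0559), C4H (0.0701), CAD5 (0.157) and CCR2 (0.159) ended, as did that of ELI3-2, whose highest adjusted p was 0.113 without flg22 replicate 1. C4H, CAD5 and CCR2 also needed flg22 replicate 1, CAD5 and CCR2 flg22 replicate 3, CAD5 water replicates 1 and 2, and ELI3-2 water replicate 3. The count of rises was 5 after centring and ran from 4 (without flg22 replicate 2) to 9 with 1 array left out. None of 13 flavonoid and anthocyanin genes passed with limma, and their median was −0.25.

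Cell wall and apoplastic oxidases gave isolated but steep rises. Of 16 class III peroxidases 4 rose, although the list's median was −0.16 and turned positive after either rescaling (0.32 and 0.21). AT5G39580 went from 282, 269 and 419 to 7840, 9264 and 4346 (4.42 ± 0.40, adjusted p 1.94e-07). AT5G64120, which RefSeq also calls PRX71, went from 7563, 6847 and 2651 to 49472, 53968 and 32741 (3.10 ± 0.48, adjusted p 0.000324). AT4G36430 was called absent under water and was at least 9.83-fold higher (adjusted p 0.000227), although its flg22 signals of 6159, 5815 and 393 differed widely. PRX52 was at least 3.70-fold higher (adjusted p 0.0143, and 0.220 without flg22 replicate 2). The list of berberine bridge enzyme-like oxidases had 6 of 20 rising, with 8 called absent in both groups. Besides AT1G30700, AT4G20860 went from 890, 1823 and 711 to 11540, 11947 and 10206 (3.42 ± 0.39, adjusted p 5.19e-06). AT1G26420 was at least 6.34-fold and AT5G44380 at least 4.69-fold higher, the latter not after quantile normalization. Of 25 tau-class glutathione transferases 0 passed with limma, with a median of −0.35.

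**Figure D2:**
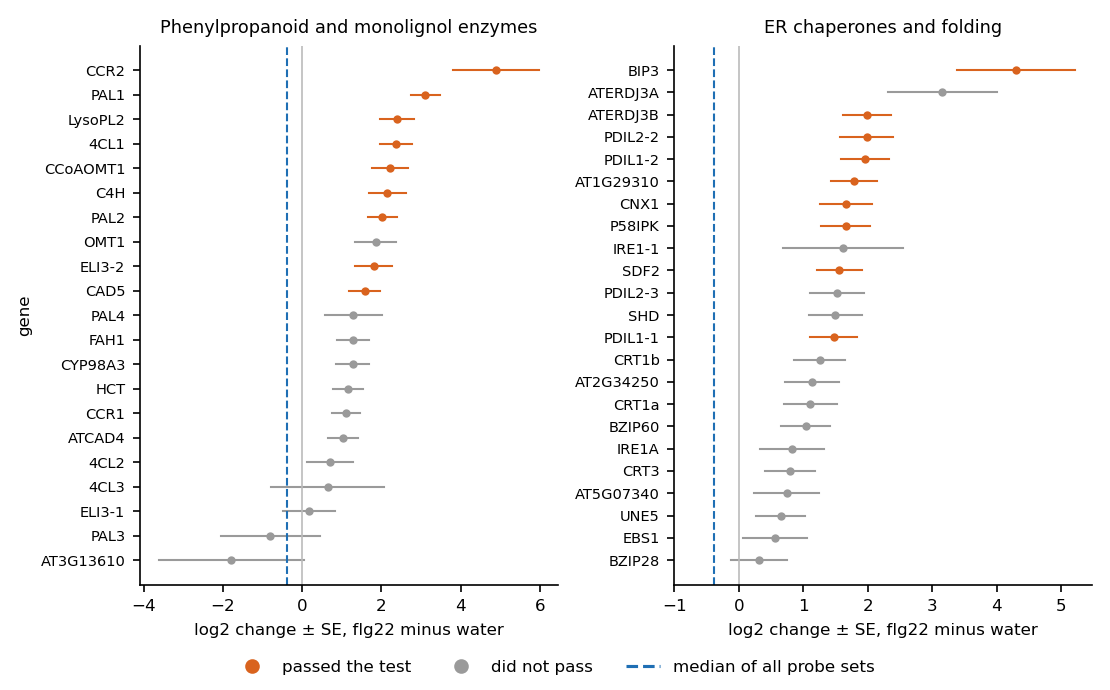
Each point is the log2 change of a gene in Col-0, flg22 minus water, with its standard error, for the 21 phenylpropanoid genes and the 23 genes of the ER folding list; orange marks genes that passed the test, and the dashed line is the median of all probe sets at −0.39. All 23 ER genes lie above 0, and 19 of the 21 phenylpropanoid genes do.

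The protein folding machinery of the endoplasmic reticulum, through which surface receptors and secreted proteins pass, was the most uniform of the rising lists in direction. All 23 measured members had a positive change under the deposited scaling, 9 rose and 0 fell, and the median was 1.50. BIP3 (AT1G09080), the stress-induced member of the ER Hsp70 chaperones, had 16.3, 25.3 and 218 under water, called absent, and 848, 717 and 1129 under flg22. It was at least 3.59-fold higher (adjusted p 0.00919, and lost without flg22 replicate 2 or 3, at up to 0.107). ATERDJ3B, a J-domain co-chaperone required for receptor quality control, went from 2144, 2107 and 3588 to 9353, 9499 and 11444 (1.99 ± 0.37, adjusted p 0.00282). Its partner SDF2 went from 2264, 2211 and 2594 to 6268, 7720 and 6926 (1.56 ± 0.36, adjusted p 0.0163). In both the replicates lay close together and the groups were apart.

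The disulfide isomerase genes PDIL2-2, PDIL1-2 and PDIL1-1 rose by 1.99, 1.96 and 1.47. The calnexin gene CNX1, the co-chaperone gene P58IPK and AT1G29310 rose by 1.66, 1.66 and 1.79. The calls of SDF2, PDIL1-1, CNX1 and P58IPK were lost without flg22 replicate 2, at adjusted p 0.127, 0.147, 0.173 and 0.113, and without water replicate 1. SDF2, PDIL1-1 and CNX1 also needed water replicate 2, PDIL1-1, CNX1 and P58IPK flg22 replicate 1, and PDIL1-1 and P58IPK flg22 replicate 3. Of the sensors and transcription factors of the unfolded protein response, BZIP60 (1.04, adjusted p 0.225) and BZIP28 (0.31, adjusted p 0.829) did not pass. The count of rising members was 6 after centring and 8 after quantile normalization, and the median was 1.87 and 1.31. With 1 array left out the count ran from 5, without flg22 replicate 2, to 13, without water replicate 3.

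Secretion at the plasma membrane gave 4 rises and 1 fall among 14 measured members. SYP121 (AT3G11820), the syntaxin of focal defence secretion also known as PEN1, went from 712, 623 and 923 to 1987, 3269 and 3316 (1.91 ± 0.39, adjusted p 0.00589, and 0.0658 without flg22 replicate 2). Its close relative SYP122 had a change of 1.77 (adjusted p 0.0314), which did not pass without flg22 replicate 2 or 3 or water replicate 2, at up to 0.169, or under either rescaling. Among EXO70 subunits of the exocyst, which tethers secretory vesicles, EXO70H2 went from 336, 163 and 150 to 3035, 3382 and 4878 (4.19 ± 0.44, adjusted p 1.65e-06). EXO70B2 was at least 3.30-fold higher (adjusted p 0.0168, and lost without flg22 replicate 2 or 3, at up to 0.115, and after quantile normalization). EXO70H1, named as one of the 25 largest rises and not a member of the list, was at least 9.81-fold higher (adjusted p 0.000418). In the whole EXO70 family, looked at after these values had been seen, 3 of 22 measured genes rose, 12 had a negative change and the median was −0.21. The callose synthase gene GSL05 did not pass (0.88, adjusted p 0.345). AT3G61260 was the member that fell, from 4675, 4465 and 2133 to 1191, 988 and 843 (−1.83 ± 0.39, adjusted p 0.00921). That call was lost without water replicate 1 or 2, at up to 0.0670, and after centring.

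Transporters of sugars and amino acids were raised. In the list of sugar, amino acid and nitrate transport 5 of 14 rose and 0 fell, with a median of 1.55. LHT1, an amino acid importer, went from 1899, 2722 and 3268 to 12043, 15903 and 12228 (2.37 ± 0.38, adjusted p 0.000456), and the cationic amino acid transporter gene AAT1 rose by 2.24 ± 0.37 (adjusted p 0.000590). LHT7 was at least 4.29-fold higher (adjusted p 0.0133, and 0.297 without flg22 replicate 3). The hexose transporter genes STP4 and MSS1 rose by 1.80 and 1.70 (both adjusted p 0.0179), and both calls were lost without flg22 replicate 2, at 0.0975 and 0.0948, and without flg22 replicate 1. MSS1 also needed water replicate 2. STP4 did not pass after quantile normalization (0.0535) or centring (0.0871), nor MSS1 after centring (0.131). The nitrate reductase genes NIA1 (−0.21) and NIA2 (0.33) did not pass and had overlapping groups.

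**Figure D3:**
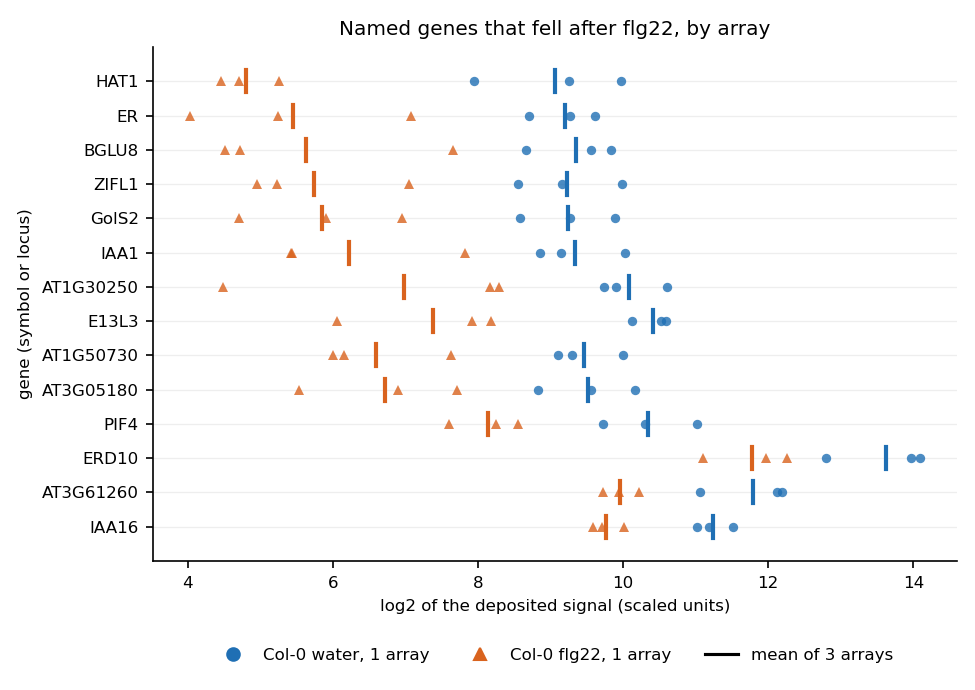
The log2 signal of each Col-0 array is plotted for the 14 named genes that fell, with circles for water, triangles for flg22 and a bar at each mean of 3 arrays. Water arrays lie above flg22 arrays for all 14, and for the 6 with the largest falls, HAT1 to IAA1, no flg22 signal exceeds 226 units.

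Of the 63 falls 8 were members of the gene lists. HAT1 (AT4G17460), a homeodomain-leucine zipper factor of shade and brassinosteroid growth, had 1005, 609 and 247 under water and 26.0, 22.0 and 38.1 under flg22, where it was called absent. It was at least 4.35-fold lower after flg22 (adjusted p 0.0336). ER (AT2G26330), the receptor kinase ERECTA that shapes stems and stomatal spacing, had 780, 418 and 619 under water and 37.8, 16.3 and 135 under flg22, called absent, at least 3.63-fold lower (adjusted p 0.0403). Neither gene's groups overlapped, yet both calls were lost without flg22 replicate 2, water replicate 1 or water replicate 2, at adjusted p up to 0.339 and 0.263, and for ER also without water replicate 3. They did not pass after quantile normalization (0.146 and 0.138) or centring (0.0556 and 0.0824). PIF4 (AT2G43010), a factor that promotes elongation, went from 1256, 841 and 2074 to 374, 305 and 194 (−2.21 ± 0.49, adjusted p 0.0135). It kept its call whichever array was left out, though not after centring. In the growth list 2 of 25 fell and 0 rose, against 0.277% falling over all probe sets, and the median was −1.44 (−1.07 after centring). With 1 array left out the falls ran from 1, without water replicate 1 or 2, to 7, without water replicate 3.

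The auxin-inducible repressor genes IAA1 (−3.12, adjusted p 0.0454) and IAA16 (−1.47, adjusted p 0.0381) were 2 of 35 auxin genes that fell, against 0.277% over all probe sets. The median of the list was −0.58, which differs by −0.19 from the median of all probe sets. IAA1 had 462, 566 and 1040 under water and 42.9, 43.1 and 226 under flg22. On flg22 replicates 1 and 2 it lay below the lowest signals among probe sets called present (278 and 113 units). The size of its fall is therefore uncertain. The call of IAA1 held only without flg22 replicate 3 and that of IAA16 only without water replicate 3, and otherwise leaving out 1 array gave adjusted p up to 0.180 and 0.171. In the list of abscisic acid and cold genes 2 of 27 fell and 1 rose. GolS2, a galactinol synthase of cold and drought responses, was called absent under flg22 and was at least 4.79-fold lower (adjusted p 0.0388). The dehydrin gene ERD10 went from 17537, 16025 and 7146 to 4021, 2206 and 4911 (−1.84 ± 0.43, adjusted p 0.0192). GolS2 lost its call without flg22 replicate 3 or any water array, at up to 0.305, and ERD10 without flg22 replicate 1 or 2 or water replicate 1 or 2, at up to 0.229. After quantile normalization IAA1 (0.152) and GolS2 did not pass, and after centring none of IAA1, IAA16, GolS2 and ERD10 did (0.143, 0.582, 0.0985 and 0.496). PYL4, an abscisic acid receptor, rose by 1.85 ± 0.38 (adjusted p 0.00736).

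E13L3 (AT5G08000), related to glucan endo-1,3-beta-glucosidases, went from 1471, 1542 and 1113 to 289, 242 and 66.4 (−3.03 ± 0.57, adjusted p 0.00278). Its groups did not overlap, as the choice of the largest falls required, and it kept its call whichever array was left out. The beta-glucosidase family gene BGLU8 (−3.72), ZIFL1 (−3.49), AT1G30250 (−3.10), AT1G50730 (−2.87) and AT3G05180 (−2.80) completed the 10 largest falls. On flg22 replicate 1 each lay below the lowest signal among probe sets called present (278 units), so these sizes are uncertain. All 5 lost their calls without water replicate 1, where the adjusted p ran from 0.171 to 0.323, and without water replicate 2. AT1G30250 and AT3G05180 also needed flg22 replicate 1, BGLU8, ZIFL1 and AT1G50730 flg22 replicate 2, and BGLU8 and ZIFL1 water replicate 3. They did not pass after quantile normalization or centring.

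Photosynthesis genes shifted together without a call. All 33 measured nuclear members had a negative change under the deposited scaling, 0 passed, and the median was −0.78, which differs by −0.39 from the median of all probe sets. It was −0.56 after quantile normalization and −0.41 after centring. The Calvin cycle enzyme genes SBPASE (−1.48, adjusted p 0.0509) and PRK (−1.40, adjusted p 0.0834) came nearest to the threshold, and 2 members passed as falls after quantile normalization. RCA, the Rubisco activase gene, had 44581, 37438 and 33636 under water and 27400, 29021 and 23644 under flg22 (−0.53 ± 0.52, adjusted p 0.746), without overlap. The median of the list's log2 signals was 15.44, 14.78 and 14.52 on the water arrays and 14.35, 14.38 and 14.13 on the flg22 arrays, so the groups did not overlap. Chlorophyll synthesis genes had a median of −0.81 and aliphatic glucosinolate genes one of −1.16, with 0 of 14 and 0 of 11 passing and medians of −0.44 and −0.80 after centring. The summed signal of the 5 mesophyll markers ran from 155600 to 311000 units under water and from 109600 to 128300 under flg22, with 0 of 5 passing. That of 6 guard cell markers ran from 1574 to 2607 and from 749.7 to 1121, with 0 of 6 passing, 1 called absent in both groups. These marker levels moved in the same direction as the falls, and their part in them was not tested. The summed signals of 6 epidermal, 9 vascular, 3 trichome and 9 root and flower markers overlapped between the groups, with 0 members passing.

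**Figure D4:**
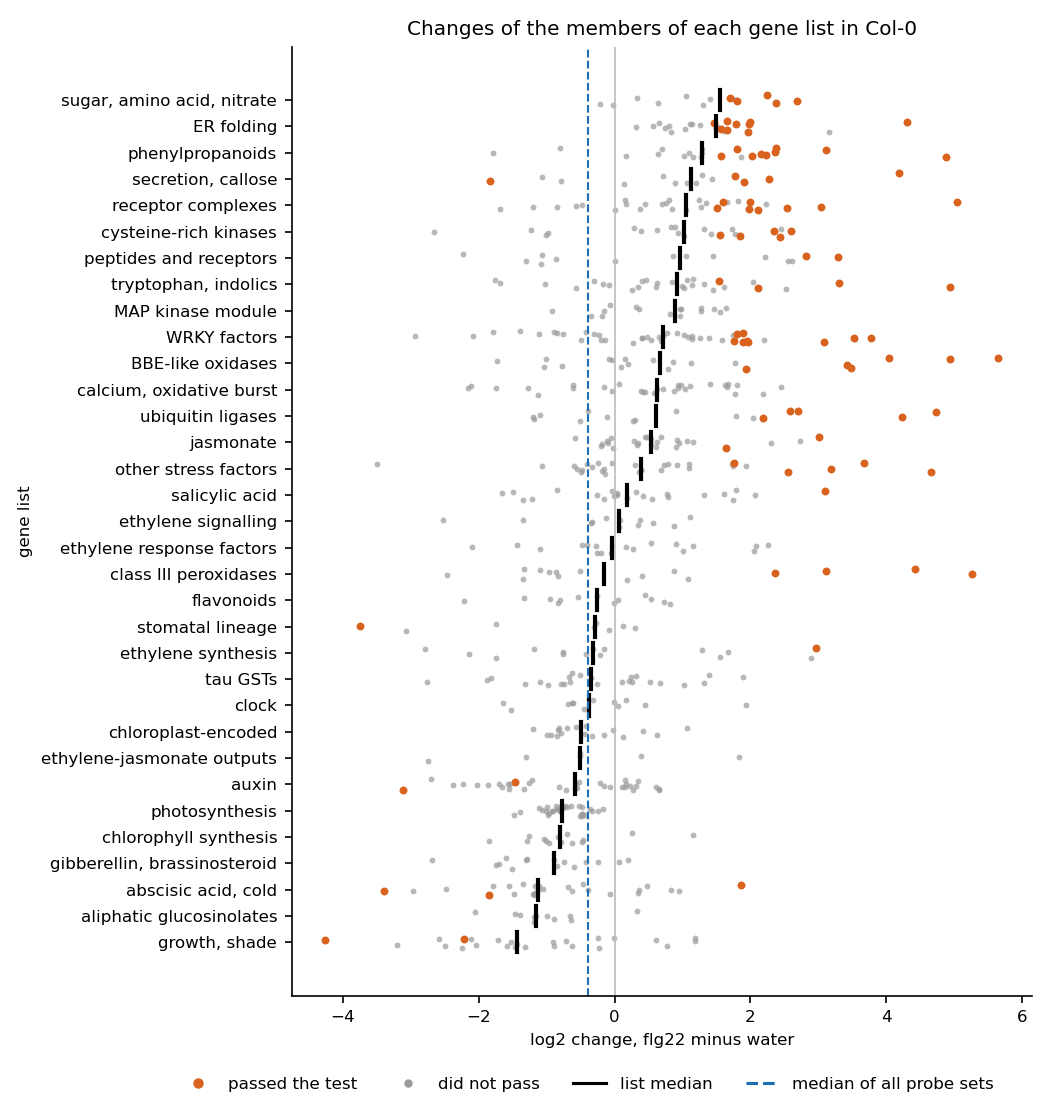
Points are the log2 changes of the measured members of 33 gene lists in Col-0, ordered by list median (black bar), with orange for members that passed the test; the dashed line is the median of all probe sets at −0.39. Orange points to the right are spread over the defence, folding and transport lists, and the lowest medians belong to growth, aliphatic glucosinolate and abscisic acid genes.

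Some raised genes lay next to each other on the chromosome. Of 318 raised genes with a measured neighbour in the RefSeq gene order, 28 had a neighbour that also rose, and 6.11% of the neighbours of raised genes rose against 1.68% of all measured genes. They formed 12 runs: 9 of 2 genes, 2 of 3 and 1 of 4. The run of 4 held ATCS (1.41), a citrate synthase gene, AT2G44360 (1.65), AT2G44370 and AT2G44380. One run of 3 held SS3 (2.45), AT1G74010 (1.89) and SS2 (2.20), of the strictosidine synthase-like family, and the other held EXO70H2, AT2G39390 (1.61) and AT2G39400 (1.58). Pairs of related kinases were CRK2 with CRK3, CRK18 (3.65) with CRK19, LECRKA4.1 (3.07) with LECRKA4.2 (at least 3.21-fold), and IOS1 with AT1G51790 (4.08). The trypsin inhibitor family genes TI1 and TI2 rose by 1.79 and 1.77. With 1 array left out ATCS, AT2G44360, SS3, AT1G74010, AT2G39390, AT2G39400, CRK18, LECRKA4.2, TI1 and TI2 lost their calls, at adjusted p from 0.0537 (TI1, without water replicate 1) to 0.261 (AT2G39390). Several runs hold related copies, and how far a probe set also reads its neighbour's transcript was not tested.

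The wild-type response was set against that of the other lines, whose arrays it does not share. Yet Col-0 flg22 replicate 3 correlated at up to 0.926 with an array outside its group and at up to 0.836 within it. For Col-0 water replicate 2 these values were 0.890 and 0.734. The same highest values, 0.926 and 0.890, were found for mpk6 flg22 replicate 3 and mpk6 water replicate 2. The 3′ to 5′ actin ratio was 35.6 on Col-0 flg22 replicate 3 and 36 on mpk6 flg22 replicate 3. For water replicate 2 it was 9.7 in Col-0 and 14.2 in mpk6. Over the arrays of the other lines it ran from 10.6 to 53.6. What the similar arrays had in common, and its bearing on the comparison of the lines, was not tested. The interaction tests asked whether the change in a line differed from that in Col-0. In limma's fit of all 24 arrays 0 probe sets passed for mpk6, erf104 or 35S::ERF104, and 921, 2863 and 765 had p under 0.05 before adjustment. A fit of 23 arrays, without erf104 flg22 replicate 2, again passed 0, and 1615, 1393 and 1531 had p under 0.05 before adjustment. That array correlated with all others at 0.223 to 0.250 and stands apart, so the erf104 response is given with 5 arrays first and 6 second. Leaving out Col-0 water replicate 2 gave 3 probe sets for mpk6 and 2 for 35S::ERF104, and leaving out water replicate 3 gave 1 each for erf104 and 35S::ERF104.

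Of the 359 rises, 358 had a positive change in mpk6, 358 in 35S::ERF104 and 357 in erf104 (335 with 6 arrays), where 50.6%, 43.9% and 45.7% of all probe sets were positive. The median change of these probe sets was 1.99 in mpk6, 1.53 in 35S::ERF104 and 1.83 in erf104 (1.14 with 6 arrays), beside 2.28 in Col-0, where they were selected for passing. Of the 63 falls, 63, 62 and 61 were negative in the same 3 lines (60 with 6 arrays of erf104), with medians of −1.58, −1.33 and −1.35 (−1.62 with 6 arrays of erf104). AT2G44370 changed by 6.51 in mpk6, 5.30 in 35S::ERF104 and 4.67 in erf104 (2.64 with 6 arrays), beside 6.40 in Col-0. The ER folding list had medians of 1.39, 0.93 and 0.97 (0.35 with 6 arrays) in mpk6, 35S::ERF104 and erf104, and the growth list −1.12, −0.94 and −0.76 (−0.995 with 6 arrays).

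**Figure D5:**
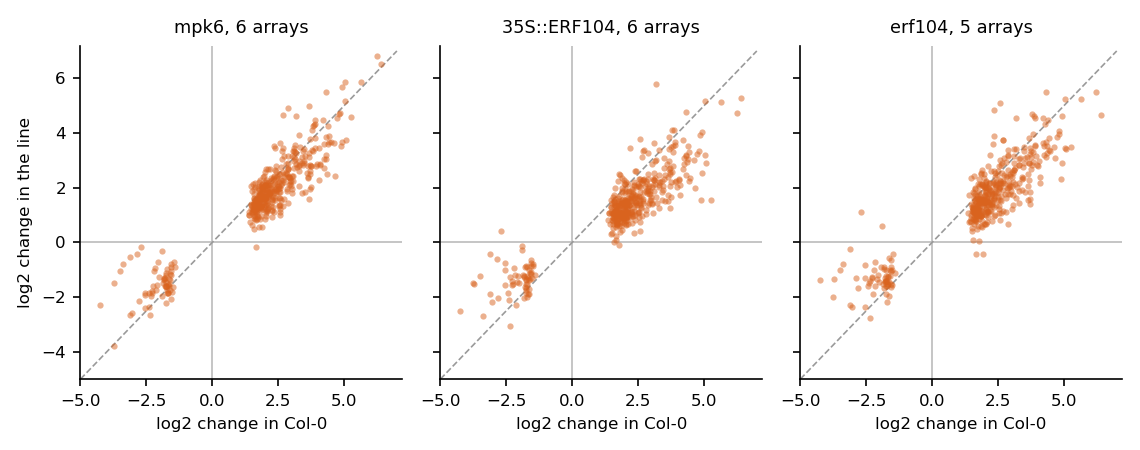
Each point is 1 of the 422 probe sets that passed in Col-0, with its log2 change in Col-0 on the horizontal axis and its log2 change in mpk6, 35S::ERF104 or erf104 (without flg22 replicate 2) on the vertical axis; the dashed line marks equal changes. Nearly all points lie in the quadrants of equal direction, and 356 rises and 61 falls kept their direction in all 3 lines.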

How the data were processed

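Affymetrix ATH1 arrays measured leaf RNA. Sample titles gave the groups and the replicate numbers. The deposited values are linear intensities, 1 for each probe set on each array, already scaled. Summarisation software was not given in the sources used here. The authors' group table, exported from Genespring GX 7.3.1 per the series text, gave loci and, as other values, the detection calls that occurred in each group. Its group means matched the mean of the 3 arrays within 0.1% for 99.7% (Col-0 water) and 96.8% (Col-0 flg22) of probe sets.

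Intensities were taken to log2 without a pseudocount or filter, and 64 control probe sets of 22810 were left out. The 6 Col-0 arrays were fitted with limma (version 3.58.1, R version 4.3.3), using lmFit and eBayes with a trend. Benjamini-Hochberg adjustment was made over 22746 probe sets. A test on simulated data drew its spread from this same fit with the trend, so it has no bearing on the choice of the trend. SEs use the moderated variance. Interactions were fitted on 24 arrays. The series text's filter on calls in 50% of the arrays needs calls per array, which were not used here. Probe sets were named by locus and by RefSeq symbol (TAIR10.1; 22091 loci matched). A gene was taken by its brightest suffix-free probe set.

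Members, the 39 gene lists (762 genes, 705 measured) and tests were chosen with earlier results of these data known. Named genes are the 25 largest rises and 10 largest falls with non-overlapping groups, up to 4 called members per list and direction, and a set of immune and leaf genes named whether called or not; other members are named to complete a list. Alternatives were other scalings, a pseudocount of 50, filters, variance priors, array weights, fits of 24 or 23 arrays, a replicate block, the methods' ANOVA and leaving out each array. The number of arrays limits the precision.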

Additional observations from a re-analysis of the deposited data

How the results depend on the processing

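The 422 calls (359 rises, 63 falls) became 274 (273 and 1) after centring, where the scaling alone moves the shared shift, and 290 (241 and 49) after quantile normalization. Rises made up 85.1% of calls, 83.1% after quantile normalization and 99.6% after centring. Array weights gave 939 (605 and 334), 1 fit of 24 arrays 773 (442 and 331), and 1 fit of 23 arrays 2386 (1172 and 1214). A fit of 24 arrays without the trend, chosen after seeing the data, gave 491 (276 and 215). Without the trend on 6 arrays, and by the methods' ANOVA after adjustment, 0 passed (0 rises, 0 falls). That ANOVA unadjusted and over 3-fold gave 1205 (432 and 773). Testing only probe sets called present or marginal gave 40 falls. Leaving out 1 array gave 239 (without flg22 replicate 2) to 681 (without water replicate 3) calls, 198 to 461 rises and 13 (without water replicate 1) to 220 (without water replicate 3) falls. The causes were not tested. With the replicate number as a block 1101 passed (717 and 384), but the labels do not say whether the numbers pair the samples. Deviations of same-numbered arrays correlated at 0.0686, −0.084 and −0.276, and those of different-numbered arrays at −0.304 to 0.378. Taken from means of only 3 arrays, these correlations cannot show whether the samples were paired. Interactions stayed at 0 under the 6 other fits, and with 1 Col-0 array left out ran from 0 to 1 (erf104), 0 to 3 (mpk6) and 0 to 2 (35S::ERF104). Of 87 named genes that passed, 67 passed after quantile normalization, 68 after centring and 60 without flg22 replicate 2; none reversed. ERF104 (−0.05), PR1 (−0.25) and PDF1.2 (−0.50), which did not pass, changed sign: ERF104 to 0.16 after quantile normalization and 0.32 after centring, PR1 to 0.11 under each of these and 0.0859 with array weights, and PDF1.2 to 0.16 after quantile normalization. With 1 array left out they ran from −0.72 to 0.41, from −1.60 to 0.57 and from −1.41 to 0.28. The lowest signal among probe sets called present throughout a group ran from 58.7 to 347 units over the 6 arrays, and changes below it are not measured.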

Other observations

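Further gene families were picked after their values had been seen, so they are given as values without a test of the family. Some transporter genes of several families rose, and other members did not. Of 4 measured AMT ammonium transporter genes 1 rose. Of 10 SULTR sulfate transporter genes 6 had a negative change, and the median was −0.39. The phosphate and ZIP metal transporter families were not counted. The ammonium transporter gene AMT1;1 (AT4G13510) went from 881, 2356 and 2651 to 12109, 16037 and 14110 (log2 change 2.99 ± 0.41, limma adjusted p 7.44e-05). The nitrate transport accessory gene WR3 (AT5G50200) rose by 2.91, the phosphate transporter gene PHT1;4 by 3.66 and the metal transporter gene ZIP5 by 3.31. SULTR1;2, a sulfate importer, was called absent under water and was at least 3.94-fold higher (adjusted p 0.00556, and 0.272 without flg22 replicate 3); it was 1 of 10 measured SULTR genes to rise. Of 10 plasma membrane proton ATPases only HA2 rose (2.35), from 6802, 8665 and 3649 to 36013, 34587 and 22787, beside 0.11 for HA1. In this family 8 genes had a negative change, and the median was −0.35. Of 5 UTR genes for nucleotide sugar transport 3 rose: UTR2 by 2.53, UTR3 by 2.05 and UTR1 by 1.76, the last lost without flg22 replicate 1 or 2 or water replicate 1, at up to 0.0847. Of 7 measured YSL metal-chelate transporter genes YSL7 (at least 5.27-fold) and YSL3 (2.13) rose, with a family median of 0.30. Of 9 OPT oligopeptide transporter genes OPT6 (at least 3.06-fold) and OPT1 (2.01) rose, with a family median of −0.03. The call of OPT6 (adjusted p 0.0403) was lost without any flg22 array or water replicate 1 or 2, at up to 0.245. MLO12 (AT2G39200), of the MLO family of mildew susceptibility proteins, rose from 1417, 1054 and 1441 to 21564, 17159 and 12855 (3.70 ± 0.37, adjusted p 9.55e-07) and was 1 of 15 members to pass.

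The chloroplast NADH dehydrogenase-like complex, which carries electrons around photosystem I, was looked at among the falls. Of 15 measured nuclear-encoded subunits all 15 had a negative change, 10 had every flg22 array below every water array (10.9% of all probe sets did), and 4 fell, with a median of −1.16 against −0.39 over all probe sets. NdhL went from 2703, 1557 and 1739 to 674, 481 and 572 (−1.77 ± 0.40, adjusted p 0.0169) and NdhN from 2191, 1527 and 2791 to 731, 673 and 694 (−1.59, adjusted p 0.0291). PnsL2 fell by 1.77 and NdhS by 1.51 on the log2 scale, and Lhca5, which links the complex to photosystem I, by 1.40. These 5 calls were all lost without flg22 replicate 2 or water replicate 1, at highest adjusted p from 0.132 (NdhN) to 0.233 (NdhS); those other than NdhL also needed flg22 replicate 1, and NdhS and Lhca5 water replicate 2. The starch enzyme genes SEX1 (−1.76) and SBE2.1 (−2.06), the thylakoid calcium sensor gene CaS (−1.80) and the glucosinolate breakdown gene ESM1 (−1.76) fell as well. Without flg22 replicate 2 all 4 lost their calls, and with 1 array left out their adjusted p reached 0.128, 0.146, 0.157 and 0.146. SEX1, SBE2.1 and CaS also needed water replicate 1, SEX1, SBE2.1 and ESM1 water replicate 2, and SEX1 and CaS flg22 replicate 1. After centring each array on its median no fall of this paragraph passed, as the 1 fall that then did was E13L3.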
